A study of Monodelphis domestica with 7 samples.

Results

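Vim (ENSMODG00000009818), Anxa2 (ENSMODG00000011604) and Lgals1 (ENSMODG00000000457) were taken by identifier as 3 of the 21314 genes counted by RNA-seq in the spinal cord of the grey short-tailed opossum, Monodelphis domestica. All 3 passed the filter on low counts, as did 13534 genes in all. Pups whose cord had been cut completely with scissors at thoracic level 10 (T10) on postnatal day (P) 7 were collected 24 hours later as the P7+24h group, and pups cut at P28 as the P28+24h group. Uninjured cords came from pups at P8 and P29, the ages the injured pups had reached. No pup carried a genetic change, both sexes were used, and in every group the segment rostral to T10, or its counterpart in controls, was sequenced as a pool of a pair of individuals. At the younger age whole litters were operated on and the controls came from separate litters, so injury cannot be told apart from litter there. P29 controls were anaesthetised, uninjured pups from litters in which others were cut at P28, but whether a given injured and control library share litters was not given in the sources used here.

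Vim encodes vimentin, the intermediate filament protein of radial glia and immature astrocytes, which astrocytes make again when they become reactive. Anxa2 encodes annexin A2, a calcium-dependent protein that binds membrane phospholipids and pairs with S100A10. Lgals1 encodes galectin-1, a lectin that binds galactose-bearing sugars on the cell surface and in the matrix. All are made by reactive astrocytes, but not by them alone, since endothelial cells, fibroblasts and macrophages also use them. The series asked how the cord rostral to a cut responds at an age that allows axons to cross the injury and at an age that does not.

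There were 7 libraries. The P8, P7+24h and P28+24h groups each had 1 library in run 1 and 1 in run 2, and the P29 control had 1 library, in run 1. The labels describe these as separate runs of separately collected samples, so a run stands for both a collection and a sequencing run. Total counts were between 3332232 and 6256074 per library, with the 4 libraries of run 1 the shallowest. Levels are given as CPM, a count scaled to a common library size, after trimmed mean of M-values (TMM) scaling. The labelled ages were checked on the myelin genes Mbp and Mag. Mbp was at 28.9 to 150 CPM in the 4 young libraries and 13300 to 22000 CPM in the 3 older ones. Mag was at 9.98 to 46.5 CPM and 4540 to 6290 CPM. Both were low in the young libraries, so they did not check the tissue label there. None of the neuron markers on the list had an identifier, so neurons were not checked. In whole tissue, fewer cells of a type and less RNA per cell cannot be told apart.

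Vim was abundant in every library and stood highest in the young cord. It was at 2196 and 1939 CPM in the P8 controls of run 1 and run 2, with 8872 and 11769 counts. In P7+24h cord it was at 3089 and 2715 CPM. It was at 647.4 CPM in the P29 control (95% Wilson interval 621 to 675, counting error only). In P28+24h cord it was at 1459 and 1022 CPM. Group means were therefore 2068 ± 182 at P8, 2902 ± 264 at P7+24h and 1240 ± 309 at P28+24h (SD, n = 2 each). None of the 4 groups overlapped another for Vim, and their order from high to low was P7+24h, P8 control, P28+24h, P29 control, an arrangement shared by 0.539% of genes tested. That share counts this order only, which was read from Vim itself. The share of genes whose groups separate in any order was not computed.

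Anxa2 had the opposite order of ages. It was at 91.4 and 83.2 CPM in the P8 controls and at 129 and 95.3 CPM in P7+24h cord. The P29 control was at 185.1 CPM (95% Wilson interval 171 to 200), from 644 counts. The P28+24h libraries were at 278.3 CPM in run 1 and 136.4 CPM in run 2, on either side of that control. Group means were 87.3 ± 5.75, 112.1 ± 23.8 and 207.3 ± 100 CPM at P8, P7+24h and P28+24h (SD, n = 2 each), so the older injured libraries were the most spread. Every older library lay above every young one, as for 19.9% of genes tested.

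Lgals1 was also higher in the older cord but differed more between runs than the other 2 genes. Its levels were 243.8 and 107.9 CPM at P8 and 272.1 and 133.8 CPM at P7+24h. It was at 450 CPM in the P29 control (95% Wilson interval 428 to 473), and at 561.5 and 234 CPM in P28+24h cord. Within each group of 2, the run 1 library was more than 2-fold above the run 2 library. The older run 2 library, at 234 CPM, lay below both young run 1 libraries. Group means were 175.9 ± 96.1, 203 ± 97.8 and 397.8 ± 232 CPM at P8, P7+24h and P28+24h (SD, n = 2 each), and each of these overlapped the next, with the P29 control inside the range of P28+24h. Levels of different genes are not set against each other here, since no transcript lengths were used.

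**Figure D1:**
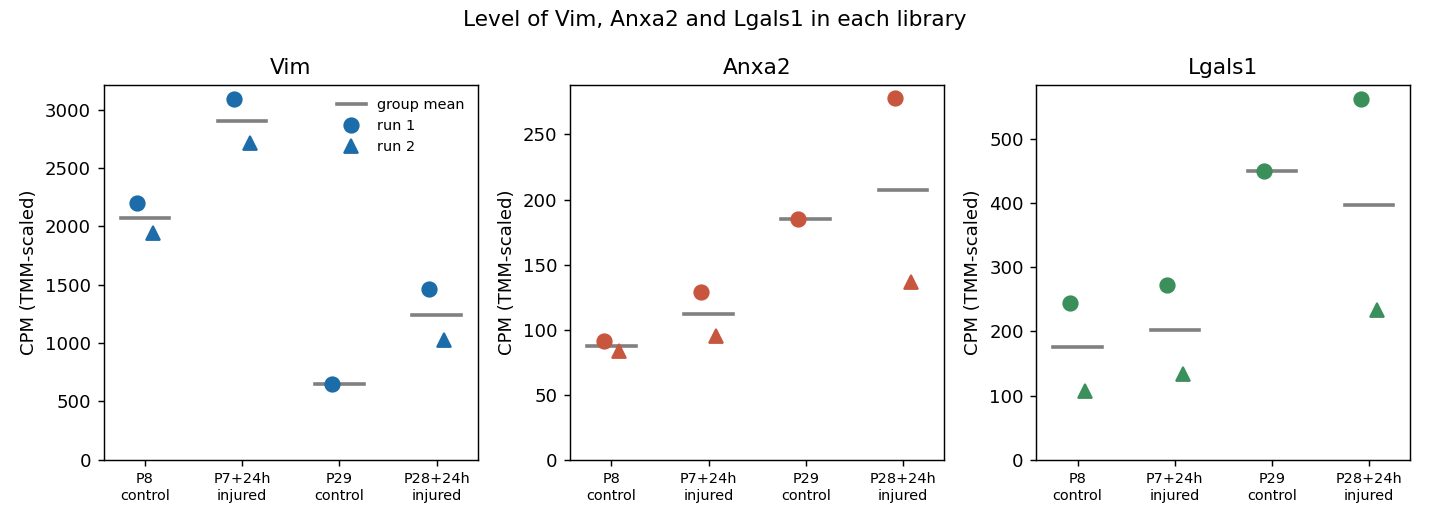
Levels of Vim, Anxa2 and Lgals1 in the 7 libraries, in CPM after TMM scaling, by group on the horizontal axis, with each run marked separately, bars for group means and each axis starting at 0. Vim was highest in the P7+24h libraries (3089 and 2715 CPM) and lowest in the P29 control (647.4 CPM), whereas the run 1 and run 2 points of Lgals1 stood well apart in every group that had both.

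The first question was whether the genes differed 1 day after a cut at P7. Within each run all 3 were higher in injured than in control cord, by less than 2-fold. The changes in log2 CPM were 0.49 in run 1 and 0.49 in run 2 for Vim, 0.50 and 0.19 for Anxa2, and 0.16 and 0.31 for Lgals1. Of all genes tested, 28.6% were likewise higher in both runs. The Vim difference was nearly the same in the 2 runs, and 7.36% of genes in run 1 and 6.35% in run 2 had a larger one. Both injured libraries lay above both controls for Vim and for Anxa2, an arrangement shared by 8.55% of genes (7.17% had both below), but not for Lgals1.

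None of the 3 passed the test at P7. A gene was called when its adjusted p was under 0.05 and its fold at least 2, by edgeR's quasi-likelihood test with Benjamini-Hochberg adjustment over all 13534 genes. Without a term for run, 0 genes of 13534 were called (69 had an unadjusted p under 0.05), so percent called was 0%. The fitted log2 difference was 0.49 (SE 0.30) for Vim, 0.36 (SE 0.40) for Anxa2 and 0.21 (SE 0.62) for Lgals1, each with an adjusted p of 1. With run as a block the values were 0.49 (SE 0.18), 0.33 (SE 0.20) and 0.24 (SE 0.16), again with an adjusted p of 1 each, where 0.0148% of genes were called. The block lowered the standard error of Lgals1 the most, and left its estimate nearly in place. Without the block, Lgals1 turned to -0.26 when the P8 control of run 2 was left out and to -0.39 when the P7+24h library of run 1 was.

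The same question was asked of the cut at P28, where Vim had its largest injury difference. In run 1, the only run with a P29 control, Vim was 2.25-fold higher in injured cord, a log2 difference of 1.17 that 4.51% of genes exceeded. Anxa2 was 1.5-fold and Lgals1 1.25-fold higher in that run, log2 differences of 0.59 and 0.32, exceeded by 16.4% and 28.8% of genes. The run 2 injured library can be set only against the run 1 control. Vim was still higher there, by 0.66 on the log2 scale, but Anxa2 was lower by 0.44 and Lgals1 by 0.94 (differences of -0.44 and -0.94), so for these comparisons injury and run cannot be told apart.

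Vim alone kept both injured libraries above the P29 control, which 22.2% of genes did. Without a term for run its log2 difference was 0.94 (SE 0.38, adjusted p = 1 by edgeR's quasi-likelihood test), and 0 genes were called (157 had an unadjusted p under 0.05), so percent called was 0%. With the run block it was 1.07 (SE 0.24), a fold of 2.09, with an adjusted p of 0.0711, while 0.584% of genes were called higher. Vim therefore missed the threshold in both quasi-likelihood fits. In the likelihood ratio test with the same block, which called 2.61% of genes higher, Vim passed with an adjusted p of 0.00279. In the blocked quasi-likelihood fit with 1 young library left out, the log2 difference was 1.087 to 1.091. Leaving out the run 1 or the run 2 injured library gave log2 differences of 0.84 and 1.11, with the spread taken from the young libraries alone. Each of these fits leaves a further group with 1 library, so no p is given.

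For Anxa2 and Lgals1 at P28 the estimate depended on the run term. No P29 control was in run 2, so blocked values here and between controls assume 1 run difference shared by all groups. For Anxa2, run 2 minus run 1 was -0.13 at P8, -0.44 at P7+24h and -1.03 at P28+24h. Anxa2 had a log2 difference of 0.16 (SE 0.48, adjusted p = 1) without the block and 0.36 (SE 0.26, adjusted p = 0.53) with it. Lgals1 was at -0.18 (SE 0.75, adjusted p = 1) without the block and at 0.27 (SE 0.20, adjusted p = 0.563) with it. The direction for Lgals1 thus turned with the block, and neither value passed the test. Without the block, it also turned to 0.26 when the run 2 injured library was left out, and Anxa2 turned to -0.45 when the run 1 injured library was left out. Across both ages, all 3 genes were higher in injured cord in all 3 same-run pairs, as were 16.8% of genes tested.

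**Figure D2:**
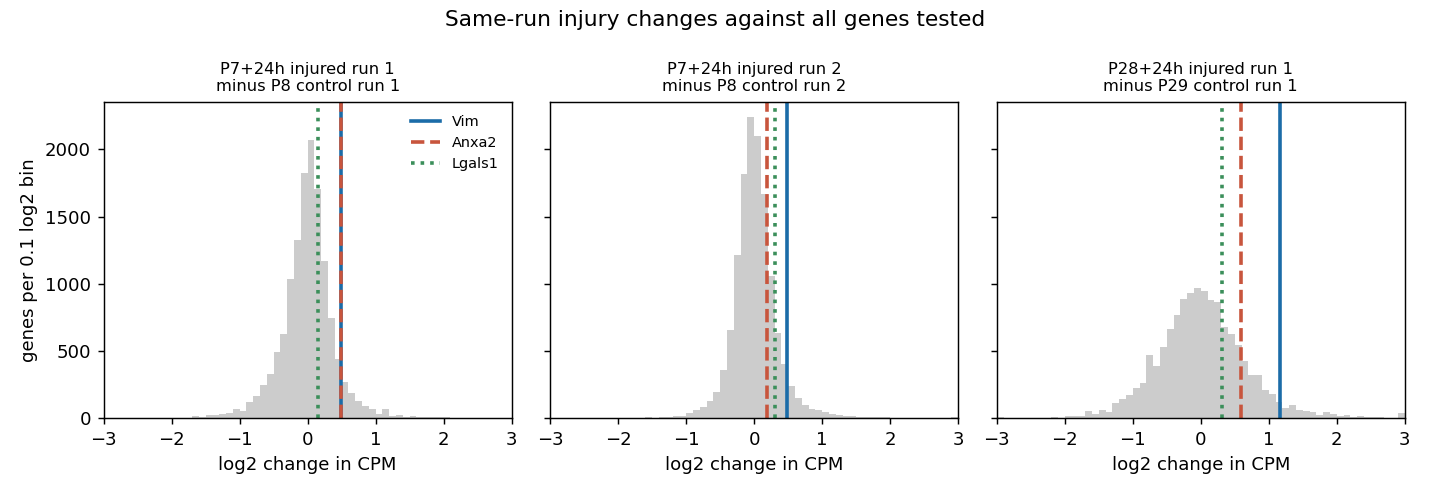
Log2 differences in CPM, injured minus control, for Vim, Anxa2 and Lgals1 in the 3 same-run pairs, over the distribution of all 13534 genes tested (genes beyond 3 in either direction are counted in the outermost bins). All 9 member values lay above 0, from 0.16 for Lgals1 at P7 in run 1 to 1.17 for Vim at P28.

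Vim stood lower and the other 2 genes higher at the older age. In run 1, Vim was lower in the P29 than in the P8 control by a log2 difference of -1.76, and 96.9% of genes had a higher value. Anxa2 was 2.03-fold and Lgals1 1.85-fold higher at P29, log2 differences of 1.02 and 0.88. The P29 control lay below both P8 controls for Vim, as for 38.8% of genes, and above both for Anxa2 and Lgals1, as for 40.4%.

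The call for Vim between controls depended on the fit. Without the run block, 1.79% of genes were called and no member passed. Vim was at -1.68 (SE 0.40, adjusted p = 0.102), Anxa2 at 1.08 (SE 0.47, adjusted p = 0.286) and Lgals1 at 1.36 (SE 0.73, adjusted p = 0.379) by edgeR's quasi-likelihood test. Without a block, Vim did pass in edgeR's exact test over all libraries (adjusted p = 0.0264) and in DESeq2 (adjusted p = 0.00536). Once run was a term, Vim fell with age to a fold of 0.283, with a log2 difference of -1.82 (SE 0.25, adjusted p = 0.000427), and was called among the 8.89% of genes called lower. Anxa2 was at 0.80 (SE 0.26, adjusted p = 0.041), a fold of 1.74, and Lgals1 at 0.89 (SE 0.20, adjusted p = 0.00708), a fold of 1.86. These 2 were under the adjusted p threshold but also under the 2-fold limit, so they were not called, and 16.7% of genes were higher with an adjusted p under 0.05 whatever their fold. The block was also fitted with scaling by library size alone, a setting chosen after seeing the data. By the quasi-likelihood test Anxa2 was then at 0.55 (adjusted p = 0.113), no longer under the threshold. Lgals1 was at 0.64 (adjusted p = 0.0309) in that fit.

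The Anxa2 value between controls changed with the P8 library left out of the blocked fit. Without the P8 control of run 1, Anxa2 was at 0.42 and Lgals1 at 0.91. Without that of run 2, Anxa2 was at 1.02, past the 2-fold limit, and Lgals1 at 0.88. Without the P7+24h library of run 2, Anxa2 was at 0.77. Each of these fits leaves a further group with 1 library, so no p is given. Whether the adjusted p of Anxa2 holds without 1 library therefore cannot be judged.

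The injured cords differed with age in the same directions. Vim was lower in P28+24h than in P7+24h cord by log2 differences of -1.08 in run 1 and -1.41 in run 2, and all older libraries lay below the young ones, as for 22.5% of genes. Anxa2 was higher by 1.11 and 0.52 without overlap, as for 25.1% of genes. Lgals1 was higher by 1.04 and 0.80 within runs, but its groups overlapped across runs.

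With the run term, Vim was at -1.24 (SE 0.19, adjusted p = 0.00042), a fold of 0.423, and was called lower, as were 8.80% of genes. Anxa2 was at 0.83 (SE 0.20, adjusted p = 0.00769) and Lgals1 at 0.93 (SE 0.16, adjusted p = 0.00101), folds of 1.78 and 1.9 that kept both short of a call. Without the P7+24h library of run 1, Anxa2 was at 0.75 and Lgals1 at 0.83. Without that of run 2, Anxa2 was at 0.90 and Lgals1 at 1.02, the latter past the 2-fold limit. Without the P28+24h library of run 1 or run 2, Anxa2 was at 0.46 or 1.13, and for all these fits no p is given. Adjusted p alone put 22.5% of genes higher. Without the block, 2.81% of genes were called and the adjusted p was 0.0948 for Vim, 0.284 for Anxa2 and 0.436 for Lgals1.

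**Figure D3:**
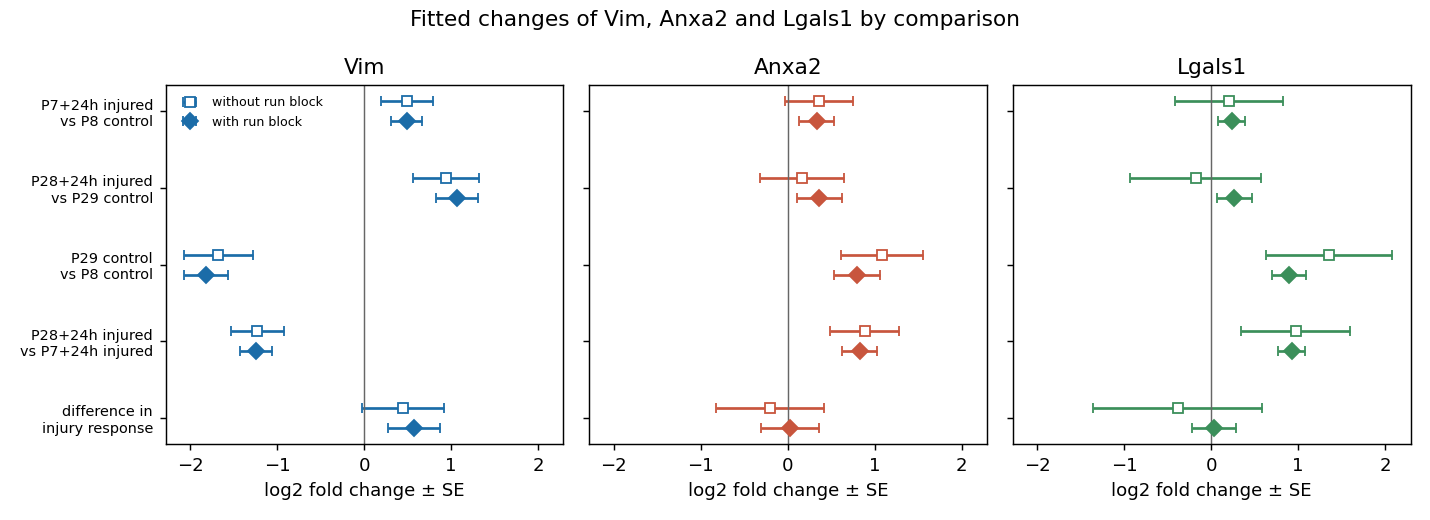
Fitted log2 differences with their standard errors for Vim, Anxa2 and Lgals1 in each comparison, without and with the run block. The estimates of Vim moved by less than their standard errors without the block, and their bars shortened with it, and Lgals1 at P28 moved from -0.18 to 0.27.

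Whether the response to injury differed between the ages was tested as the P28 difference minus the P7 difference. For Vim it was 0.45 (SE 0.47, adjusted p = 1) without the block and 0.58 (SE 0.30, adjusted p = 0.604) with it, by edgeR's quasi-likelihood test. For Anxa2 it was -0.20 (SE 0.62) and then 0.03 (SE 0.33), and for Lgals1 -0.39 (SE 0.97) and then 0.03 (SE 0.26), with adjusted p-values of 1 without the block and 0.987 and 0.983 with it. No member passed, while 0.0369% of genes were called with the block. An adjusted p above the threshold does not show that the ages responded alike.

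By the fitted run term the runs differed most for Lgals1 and least for Vim, though at P8 Anxa2 differed less than Vim. The log2 difference of run 2 from run 1 in the P8, P7+24h and P28+24h groups was -1.17, -1.02 and -1.26 for Lgals1, and it was -0.13, -0.44 and -1.03 for Anxa2. For Vim it was -0.18, -0.19 and -0.51. All 3 genes were thus lower in run 2 in all 3 groups, as were 34.8% of genes. In the block fit the run term was -1.16 for Lgals1 (SE 0.131, adjusted p = 9.71e-05), a fold of 0.449, and Lgals1 was called among the 7.08% of genes called lower in run 2. It was -0.54 for Anxa2 (SE 0.167, adjusted p = 0.0208) and -0.29 for Vim (SE 0.149, adjusted p = 0.128). The summed level of 3 erythroid genes, Hbz, Alas2 and Ahsp, moved the same way, at 190 to 457 CPM in run 1 and 51.3 to 134 CPM in run 2, and its part in the result was not tested.

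**Figure D4:**
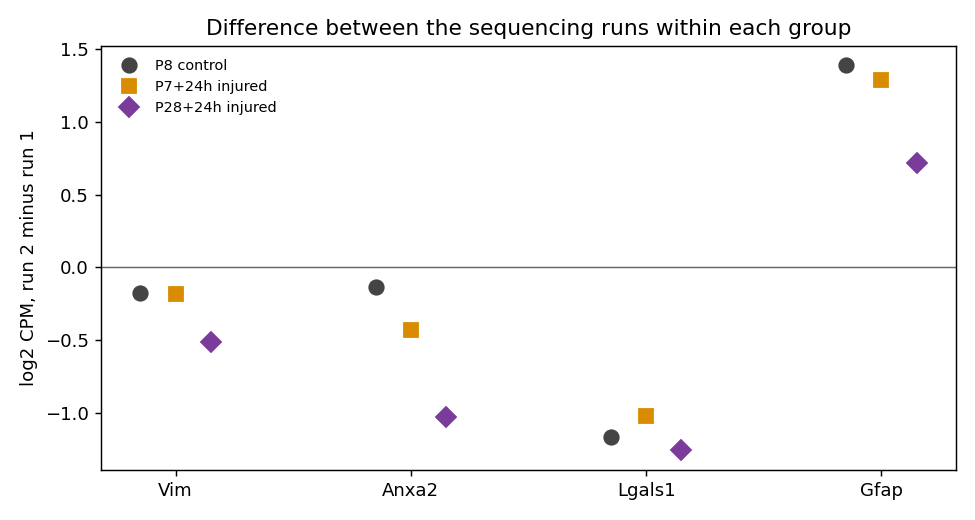
Log2 difference in CPM of run 2 from run 1 within the P8, P7+24h and P28+24h groups for Vim, Anxa2, Lgals1 and Gfap. Lgals1 lay between -1.02 and -1.26 in every group, and Gfap lay on the other side of 0 throughout.

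Gfap, the intermediate filament gene of maturing and reactive astrocytes, was set beside Vim. Its levels were 256 and 672 CPM at P8, 406 and 996 CPM at P7+24h, 1550 CPM in the P29 control and 1450 and 2390 CPM at P28+24h. Gfap was higher in run 2 in each group, by log2 differences of 1.39, 1.29 and 0.71, where Vim was lower. With the block it rose with age between controls by a log2 difference of 2.46 (SE 0.26, adjusted p = 5.5e-05 by edgeR's quasi-likelihood test), opposite to Vim, and without it the value was 1.74 (adjusted p = 0.279). Its P7 injury difference was 0.61 (SE 0.20, adjusted p = 1), near that of Vim in size. At P28 it was 0.31 without the block (adjusted p = 1) and -0.29 with it (SE 0.25, adjusted p = 0.622), where Vim was positive in both fits.

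Counts of Vim per count of Gfap, a ratio that scaling of the library cannot change, were 8.58 and 2.89 at P8 and 7.61 and 2.73 at P7+24h. They were 0.417 in the P29 control and 1 and 0.428 at P28+24h. The ratio was lower in both P7+24h libraries than in the P8 control of the same run, by a small margin. In run 1 it was higher in injured than in control cord at P28. The run 2 injured library has no control of its own run, and its ratio was near that of the run 1 control. The ratio was lower in run 2 than in run 1 in every group with both, so injury and run cannot be told apart there.

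**Figure D5:**
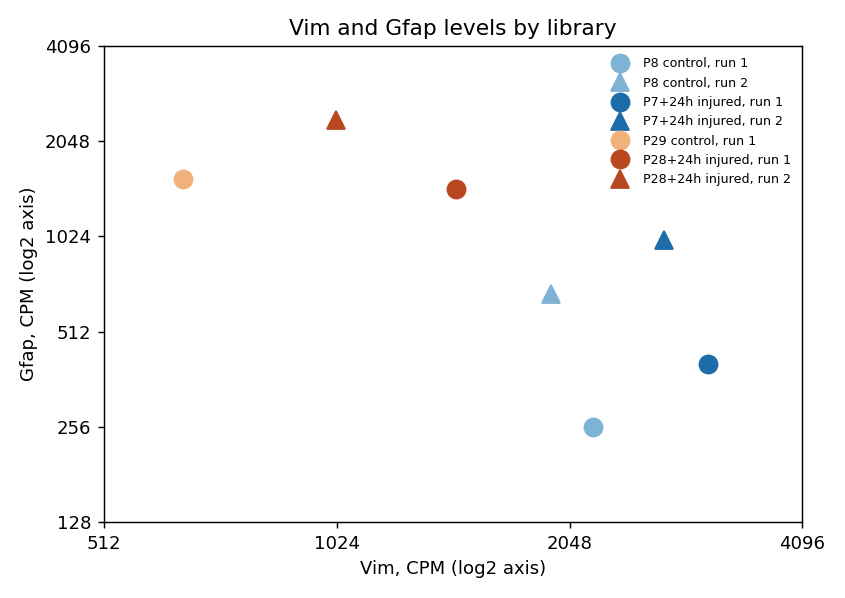
Vim against Gfap in the 7 libraries, both in CPM on log2 axes, by group and run. The young libraries sat high on Vim and low on Gfap, and the P29 control had 647.4 CPM of Vim beside 1550 CPM of Gfap.

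Few relatives of the 3 genes could be named in this species' table. Among intermediate filament genes, 3 of 14 symbols had an identifier, Vim, Gfap and Des (desmin, of muscle). In edgeR's quasi-likelihood test on the blocked fit, 0 of the other 2 were called at P7 or at P28, beside 0.0148% of all genes called at P7 and 0.584% called higher at P28. In the likelihood ratio test, Des was called at P28 (adjusted p = 0.000709), beside 2.61% of all genes called higher. The log2 differences at P28 were opposite, 3.58 for Des and -0.29 for Gfap. Des, with a mean of 14.1 counts per library, was at 0.575 CPM in the P29 control and 7.42 and 6.97 CPM at P28+24h. That control value came from 2 counts, so the size of the Des change rests on few reads. Among galectins, Lgals4 was named, at 18.1 and 15.5 CPM in the young run 1 libraries. It was at 0.165 and 0.299 CPM (1 and 2 counts) in the young run 2 libraries, a wider gap between runs than that of Lgals1. Its blocked log2 difference at P28 was 3.85 (adjusted p = 0.0514 by quasi-likelihood and 0.000136 by likelihood ratio). Outside the list, an Lgals9-like gene (ENSMODG00000019227) was at 3.71 and 1.81 CPM at P8 and 7.62 and 17.9 CPM at P7+24h, with a log2 difference of 2.35 (adjusted p = 0.425 by quasi-likelihood and 0.00156 by likelihood ratio). S100a10, Lgals3, Cd44 and Nes had no identifier, nor did any other listed annexin.

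Of 20 genes listed for reactive astrocytes, Gfap, Timp1 and Osmr were named beside Vim. Timp1, an inhibitor of matrix metalloproteinases, was at 4.21 and 0.989 CPM at P8, 9.45 and 5.68 CPM at P7+24h, 5.17 CPM at P29 and 21.5 and 13.5 CPM at P28+24h. Osmr, the oncostatin M receptor, was under 1 CPM in all young libraries and the P29 control, and at 5.3 and 5.68 CPM at P28+24h. In the blocked quasi-likelihood fit, 0 of these 3 were called at P7 (smallest adjusted p = 0.598) or P28 (smallest adjusted p = 0.0598). In the likelihood ratio test, Timp1 was called at P7 (adjusted p = 0.00887), where 0.266% of all genes were called higher. In the same test Timp1 (adjusted p = 0.00024) and Osmr (adjusted p = 0.0164) were called at P28, where 2.61% of all genes were called higher. Osmr had 1 count in the P29 control, so the size of its change rests on few reads. The identifiers came from the study's tables of changed genes and proteins, so none of these lists is an independent sample of its genes.

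Other cell types that the segment holds can also make the 3 genes, and their markers were examined beside them. The 7 named of 13 genes listed for microglia and macrophages summed to 28.7 and 31.3 CPM at P8 and 96.9 and 121 CPM at P7+24h, and to 139 CPM in the P29 control and 467 and 290 CPM at P28+24h. All 7 had a positive log2 difference at both ages with the block, and 0 of 7 were called at either by the quasi-likelihood test (smallest adjusted p = 0.0731 and 0.0625). By the likelihood ratio test 5 of 7 were called higher at P7 and 6 of 7 at P28, where 0.266% and 2.61% of all genes were. The 7 had symbols only through the study's tables of changed genes and proteins. An excess of calls over all genes was therefore partly built into the choice of these 7. Their part in the Vim, Anxa2 and Lgals1 values was not tested. The endothelial genes with an identifier, Vwf and Kdr, summed to 164 CPM in the P29 control and to 126 and 160 CPM at P28+24h, with blocked log2 differences of 1.06 and -0.77, neither called in either test. The only listed fibroblast gene with an identifier, Thbs2, was at 27.9 CPM in the P29 control and at 9.89 and 11.8 CPM at P28+24h, and 1 of 9 listed genes does not describe that cell type.

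At the older age, markers of tissue outside the cord also stood higher in injured libraries. The 4 named of 10 skeletal muscle genes summed to 4.02 CPM in the P29 control and to 137 and 36.3 CPM at P28+24h. The young libraries had 2.23 to 10.6 CPM, and each of the 4 genes had 1 to 7 counts in the P29 control. In the blocked quasi-likelihood fit, 2 of the 4 were called higher at P28, beside 0.584% of all genes. Their symbols came from the study's tables of changed genes and proteins, so that share is not an independent background. At P28+24h the sum was higher in the run 1 than in the run 2 library, as were Vim, Anxa2 and Lgals1. In both young groups the sum was instead lower in run 1. It was at 2.23 and 4.61 CPM at P8 and at 4.46 and 10.6 CPM at P7+24h, in run 1 and run 2. Vim, Anxa2 and Lgals1 were higher in run 1 in those groups too. Within P28+24h, Acta1 went against the sum, at 9.54 and 17.2 CPM, and the part of these genes in the result was not tested.

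The genes whose log2 CPM most resembled each member over the 7 libraries were looked for among 351 genes with a symbol and a mean log2 CPM of at least 5. Symbols came from the study's tables of changed genes and proteins. The candidates were thus picked partly on these data, and most of the 13534 genes tested were left out. Among the candidates, the closest were Tcerg1l (Pearson r = 0.977), Cacnb3 (0.961) and Stk32c (0.931) for Vim. For Anxa2 they were Tac1 (0.98), Vcp (0.975) and Psme2 (0.975), and for Lgals1 they were Mst1 (0.971), Mrpl23 (0.958) and Prdx1 (0.956). Among the members, Anxa2 and Lgals1 had r = 0.907, while Vim had r = -0.538 with Anxa2 and -0.513 with Lgals1. The 7 libraries share runs and ages, so these values describe the pattern of group and run. Tcerg1l, the closest to Vim, was at 45.8 to 54.7 CPM in the young libraries, 13.5 CPM in the P29 control and 30.7 and 21.2 CPM at P28+24h.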

How the data were processed

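Raw read counts per Ensembl gene were deposited by the authors, who aligned single-end reads with Bowtie2 and counted them with HTSeq in union mode. No sample column was left unused, and RNA pools rather than animals were the replicates. Counts were scaled by TMM, genes passing filterByExpr (minimum count 10) were kept, and edgeR 4.0.16 in R 4.3.3 fitted all 7 libraries over the 4 groups by quasi-likelihood. log2 CPM used a prior count of 2. SE is the log2 difference over the square root of F. The common dispersion was 0.141, and 0.0181 with run as a block, with 3 and 2 residual degrees of freedom. Runs pair the samples: the labels give each run separately collected samples, and run 2 minus run 1 correlated across 13534 genes at 0.699 to 0.802 between groups. With 1 P29 control, the spread of that group is assumed to be like the others. The block also assumes that the runs differ alike in all groups, since no P29 control was in run 2. Identifiers were given symbols from the gene tables of the study (659 of 21314). Genes named are the members, listed relatives and markers, and the 3 genes most correlated with each member. Members and lists were chosen with earlier results of these data known. The code was tested on simulated counts. DESeq2 1.42.0, exact and likelihood ratio tests, other scalings and filters, and leaving out libraries were alternatives. Intervals cover counting error only. Some markers are not reported here.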

Additional observations from a re-analysis of the deposited data

How the results depend on the processing

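Vim, P29 against P8 control, passed the threshold where it had not in the reported fit in edgeR's exact test with all libraries (log2 difference -1.675) or the compared groups (-1.671), in DESeq2 (-1.699), and with the replicate block in the quasi-likelihood (-1.82) and likelihood ratio tests (-1.82). Chosen after seeing the data, the block with RLE factors gave -1.834 and with library size only -2.075, both past it. Vim, P28+24h against P7+24h, did so in the exact test with all libraries (-1.226), in DESeq2 (-1.256), and with the replicate block (-1.243, likelihood ratio -1.243, RLE -1.272, library size -1.446). Vim at P28 did so in the likelihood ratio test with the replicate block (1.065). With the replicate block, the likelihood ratio test, RLE factors and library size in turn, Lgals1 at P28 reversed to 0.2663, 0.2664, 0.2476 and 0.2914, the difference between the ages for Anxa2 to 0.02928, 0.02909, 0.01367 and 0.07044, and that for Lgals1 to 0.03121, 0.03138, 0.01616 and 0.08745. The block changed no other call of a member. Why these values moved was not tested.

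Leaving out 1 library at a time, without the block, gave Vim 0.3915 to 0.5809 at P7, 0.6497 to 1.11 at P28, -1.763 to -1.584 between controls, -1.502 to -1.044 between injured cords and 0.1754 to 0.6342 for the difference between the ages. Anxa2 gave 0.1251 to 0.5638, -0.4496 to 0.5266, 1.018 to 1.151, 0.2869 to 1.261 and -0.7957 to 0.1793, and Lgals1 -0.3938 to 0.9096, -0.9526 to 0.2574, 0.8832 to 2.058, 0.209 to 1.567 and -1.144 to 0.212, in the same order. With the block, Vim gave 0.4059 to 0.5759, 0.8423 to 1.11, -1.933 to -1.763, -1.402 to -1.136 and 0.3681 to 0.6842. Anxa2 gave 0.05283 to 0.6555, -0.1476 to 0.5266, 0.4153 to 1.018, 0.4559 to 1.129 and -0.4721 to 0.3929, and Lgals1 0.1371 to 0.33, 0.1551 to 0.2989, 0.8609 to 0.9146, 0.8255 to 1.023 and -0.06246 to 0.1618. Each of these fits leaves a further group with 1 library, so their p-values are not given. With the block, those without a P28+24h library take their spread from the young libraries alone. The P29 control, with 1 library, could not be left out. Scaling by library size moved the median of all genes by -0.298 between controls and -0.197 between injured cords. The counting intervals of the 2 runs of a group overlapped only for Anxa2 at P8. Over all genes, the numbers called at P7, at P28, between controls, between injured cords and for the difference between the ages were 0, 0, 242, 380 and 0 in the reported fit, 2, 102, 2893, 3064 and 5 with the block, and 2, 0, 855, 1019 and 0 in DESeq2.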
